A study of Mus musculus with 16 samples.

Results

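*Ypel5*, the relative of *Ypel4* that binds the CTLH ubiquitin ligase complex, and 9 subunit genes of that complex were followed from polychromatic (Poly-E) to orthochromatic (Ortho-E) erythroblasts and between *Ypel4* genotypes. The genes were taken by name from the deposited read counts, as *Ranbp9*, *Ranbp10*, *Maea*, *Rmnd5a*, *Rmnd5b*, *Gid8*, *Armc8*, *Wdr26*, *Mkln1* and *Ypel5*. Each name matched 1 row, so that they make up 10 of the 46078 genes listed, and all 10 passed the filter on low counts in every comparison. The rule used names only and no measured value, but the members were chosen with earlier results of these data known.

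Poly-E and Ortho-E cells were sorted by Ter119 and CD44 from bone marrow at steady state, and to look for effects of losing *Ypel4* on these cells RNA was sequenced in 4 libraries of each population and genotype, 16 in all. The animals are of a C57BL/6N line that also carries the A<tm1Brd> allele, and *Ypel4*-/- mice are homozygous for the trap allele Ypel4<tm1a(EUCOMM)Wtsi> (stock WtsiIeg), which is meant to block transcription of the coding exons in every tissue, while *Ypel4*+/+ mice are wild type at *Ypel4*. The labels name no treatment, and ages and sexes of the sequenced mice are not given in the sources used here. The labels number the libraries 1 to 4 within a genotype and share the numbers between Poly-E and Ortho-E, without saying that each number is its own mouse. The p-values therefore measure the spread between these libraries, and the main fits have no replicate term.

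A ubiquitin ligase attaches the small protein ubiquitin to other proteins and can thereby send them to the proteasome. In the CTLH complex, the mammalian form of the yeast GID ligase, the RING proteins MAEA and RMND5A (or its paralog RMND5B) receive the E2 enzyme UBE2H, RANBP9 or its paralog RANBP10 forms the scaffold with GID8 and ARMC8, and WDR26 or muskelin (MKLN1) joins such units into larger assemblies. Erythroblasts remodel their proteome as they mature, condense their nucleus and prepare to lose it. MAEA was first described as a protein of erythroblasts and macrophages that acts in this maturation, and WDR26 is known for a role in nuclear condensation.

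Promoters are shown for 3 members that were higher in Ortho-E cells (*Wdr26*, *Ypel5* and *Rmnd5a*) and for *Ranbp9*, which was lower, so that sequences of genes that moved in opposite directions can be set side by side. Each is the 250 bases before an annotated start of transcription (RefSeq, GRCm38.p6), written 5′ to 3′ on the strand of the gene, and 8 of the 10 members had an entry. Capitals mark matches, on either strand, to motifs named for erythroid factors: a GATA motif (NGATAN, with A or T first and A or G last), a CACCC motif of the kind bound by KLF1 (CCNCACCC, any base at N) and an E-box (CAGNTG, with A or C at N). A match on the other strand appears as its reverse complement. *Wdr26* is read from chr1:181211979-181212228 (− strand), *Ypel5* at its first start from chr17:72836378-72836627 (+ strand), *Rmnd5a* from chr6:71440638-71440887 (− strand) and *Ranbp9* from chr13:43480974-43481223 (− strand). The RefSeq starts of *Wdr26* and *Ypel5* lie upstream of the gene bounds in the deposited counts.
Wdr26: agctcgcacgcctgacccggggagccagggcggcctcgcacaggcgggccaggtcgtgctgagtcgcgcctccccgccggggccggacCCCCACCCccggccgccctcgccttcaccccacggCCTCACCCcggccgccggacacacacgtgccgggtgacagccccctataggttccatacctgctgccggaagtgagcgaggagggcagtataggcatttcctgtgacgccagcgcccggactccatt
Ypel5: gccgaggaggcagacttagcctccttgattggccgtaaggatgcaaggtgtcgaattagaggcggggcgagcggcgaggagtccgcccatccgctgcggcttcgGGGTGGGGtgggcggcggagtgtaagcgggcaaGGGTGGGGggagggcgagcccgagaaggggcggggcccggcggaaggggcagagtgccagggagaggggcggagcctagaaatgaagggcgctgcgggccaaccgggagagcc
Rmnd5a: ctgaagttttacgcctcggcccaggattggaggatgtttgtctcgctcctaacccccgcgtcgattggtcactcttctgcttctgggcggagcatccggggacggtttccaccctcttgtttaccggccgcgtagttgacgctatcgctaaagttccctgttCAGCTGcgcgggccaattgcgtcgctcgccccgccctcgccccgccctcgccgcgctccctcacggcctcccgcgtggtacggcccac
Ranbp9: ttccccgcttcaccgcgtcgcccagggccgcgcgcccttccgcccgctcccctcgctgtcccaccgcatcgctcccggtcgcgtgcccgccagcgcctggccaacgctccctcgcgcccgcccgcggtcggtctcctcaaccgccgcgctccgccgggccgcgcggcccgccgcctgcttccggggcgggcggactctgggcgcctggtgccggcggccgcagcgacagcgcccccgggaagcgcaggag
The *Wdr26* promoter held 2 CACCC matches, 162 and 127 bases before the start, and the *Ypel5* promoter held 2, at 146 and 113 bases. *Rmnd5a* had 1 E-box match 88 bases before the start, and *Ranbp9* had no match of the 3 kinds. *Armc8*, which was not called, had 2 CACCC and 2 GATA matches, *Mkln1*, called higher, had none, and *Gid8*, called lower, had GATA matches before 2 of its 3 starts and E-box matches before 1 of them. The second start of *Ypel5* had no CACCC match, 1 GATA and 1 E-box match. A CACCC match was present in 14.9% of all 32851 promoters of this length, a GATA match in 26.5% and an E-box match in 25.5%. All 4 sequences were rich in G and C (from 64.8% in *Rmnd5a* to 81.2% in *Ranbp9*), against a median of 52.4% over all promoters. These matches describe the letters of the window only and are not evidence of binding.

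Total counts per library ranged from 2670173 to 12451234. Values are given as CPM, counts scaled to library size with edgeR's TMM factors over all 16 libraries, which makes them relative amounts within a library. The labels were checked with *Ypel4*, which ranged from 490.1 to 716 CPM in *Ypel4*+/+ and from 9.91 to 23.8 CPM in *Ypel4*-/- Poly-E cells, and from 4416 to 5437 and from 174 to 224 CPM in Ortho-E cells. All 11 erythroblast markers reported here had counts in each group, with a summed level of 56651 to 69113 CPM in Poly-E and 229134 to 313274 CPM in Ortho-E cells. *Hbb-bs* was the largest part of it. In *Ypel4*+/+ mice *Klf1* (483 to 557 CPM in Poly-E, 327 to 435 CPM in Ortho-E) and *Gata1* (280 to 309, 210 to 242) were lower in Ortho-E cells. The other markers reported were higher there. Of 3 markers lost in this step, *Mki67* was at 6520 to 7632.5 CPM in *Ypel4*+/+ Poly-E and 4660 to 5936 CPM in *Ypel4*+/+ Ortho-E cells. *Cd44* overlapped (2.34 to 4.42 and 0 to 2.85), and *Kit* had no count in Ortho-E cells. *Kit* also had only 2 counts summed over the *Ypel4*+/+ and 3 over the *Ypel4*-/- Poly-E libraries, too few to show a loss. The 7 neutrophil markers summed to at most 4.46 CPM in Poly-E and 17.9 CPM in Ortho-E cells, with *Elane* at 0 in 3 of 4 groups, and the 5 macrophage markers to at most 7.18 CPM. The 5 lymphocyte markers summed to 23.0 to 66.4 CPM with *Cd3e* at 0 in each group, most of it *Ighm*, and the 4 megakaryocyte markers to 26.7 to 35.6 CPM in Poly-E and 89.7 to 112 CPM in Ortho-E cells, where *Pf4* was at 0 and most of the sum was *Itga2b*. The part of such cells in the results was not tested.

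From Poly-E to Ortho-E cells the members went in opposite directions. In *Ypel4*+/+ mice, *Wdr26*, *Ypel5*, *Ranbp10*, *Rmnd5a* and *Mkln1* were higher in Ortho-E cells and *Maea*, *Ranbp9* and *Gid8* were lower, while *Armc8* and *Rmnd5b* did not pass the test. The same 5 and the same 3 genes were called in *Ypel4*-/- mice. The fits behind these calls had no replicate term, and the replicate number as a block changed no call of a member. By edgeR's quasi-likelihood test (Benjamini-Hochberg adjusted p up to 0.05), 26.4% of 11747 genes were called higher and 32.1% lower in *Ypel4*+/+ mice, and 29.5% and 31.5% of 11973 genes in *Ypel4*-/- mice. The members' share of lower calls was thus near that of all genes, and their 5 higher calls of 10 stood above it. Since the members were chosen with earlier results of these data known, these shares are descriptions. The median log2 fold change of the 10 members was 0.08 in *Ypel4*+/+ and 0.26 in *Ypel4*-/- mice, and that of all genes was −0.19 and −0.09. In sorted populations measured in bulk, fewer cells of a type and less RNA per cell cannot be told apart.

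**Figure D1:**
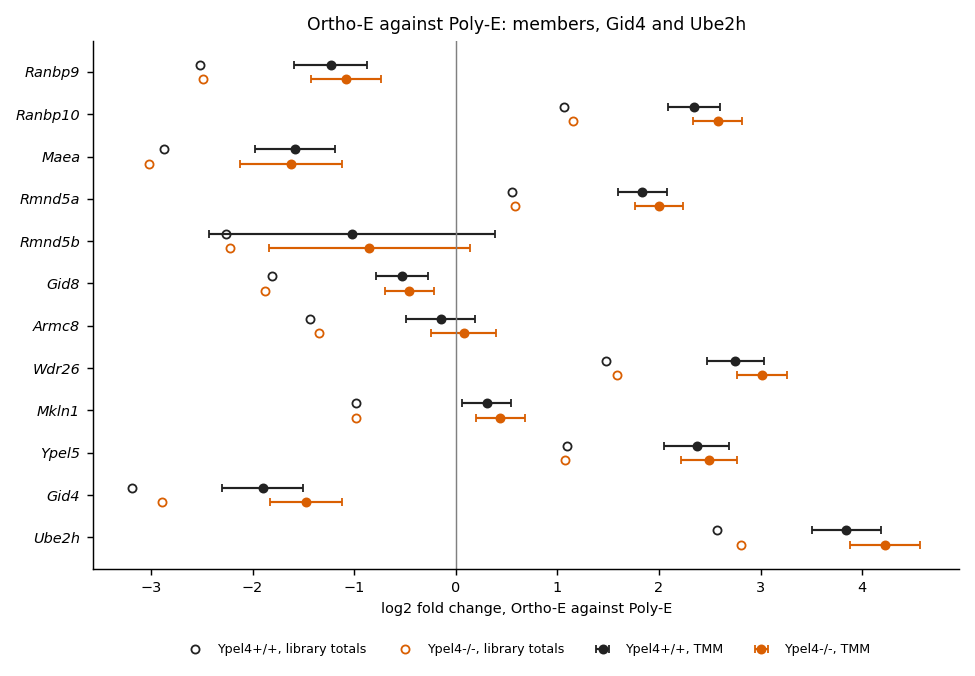
Log2 fold change of each member, with *Gid4* and *Ube2h*, in Ortho-E against Poly-E cells (x axis, log2 units) for *Ypel4*+/+ and *Ypel4*-/- mice, as filled points with 95% intervals from edgeR with TMM and as open points when scaled by library totals. With TMM, *Wdr26*, *Ranbp10*, *Ypel5* and *Rmnd5a* sit between 1.84 and 3.01 on the right and *Maea* and *Ranbp9* between −1.62 and −1.08 on the left in both genotypes.

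The scaffold paralogs moved apart. *Ranbp9* (ENSMUSG00000038546, chr13:43402673-43480973, - strand) was at 35.2, 31.4, 35.9 and 31.3 CPM in replicates 1 to 4 of *Ypel4*+/+ Poly-E and 10.01, 11.95, 14.6 and 17.02 CPM in *Ypel4*+/+ Ortho-E cells. The *Ypel4*-/- libraries had 29.6, 28.2, 31.7 and 35.6 CPM in Poly-E and 10.8, 12.8, 12.1 and 16.01 CPM in Ortho-E cells. Each Ortho-E library lay below each Poly-E library, and the level was 2.35-fold lower in *Ypel4*+/+ (log2 fold change −1.23, standard error 0.17, adjusted p = 6.57e-07 in edgeR) and 2.12-fold lower in *Ypel4*-/- mice (log2 fold change −1.08, standard error 0.17, adjusted p = 1.13e-06 in edgeR). *Ranbp10* (ENSMUSG00000037415, chr8:105768308-105827350, - strand), the paralog that can take the same place in the complex, was far more abundant. It was at 1523, 1219, 1454 and 1328 CPM in *Ypel4*+/+ Poly-E and 6914, 6203, 6846 and 7125 CPM in *Ypel4*+/+ Ortho-E cells. The values in *Ypel4*-/- mice were 1136, 1316, 1408 and 1354 CPM in Poly-E and 5735, 7053, 7145 and 7464 CPM in Ortho-E cells. The lowest Ortho-E library was above 4 times the level of the highest Poly-E library in *Ypel4*-/- and in *Ypel4*+/+ mice alike. The rise was 5.07-fold in *Ypel4*+/+ (log2 fold change 2.34, standard error 0.12, adjusted p = 8.23e-15 in edgeR) and 5.97-fold in *Ypel4*-/- mice (log2 fold change 2.58, standard error 0.12, adjusted p = 5.28e-19 in edgeR).

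**Figure D2:**
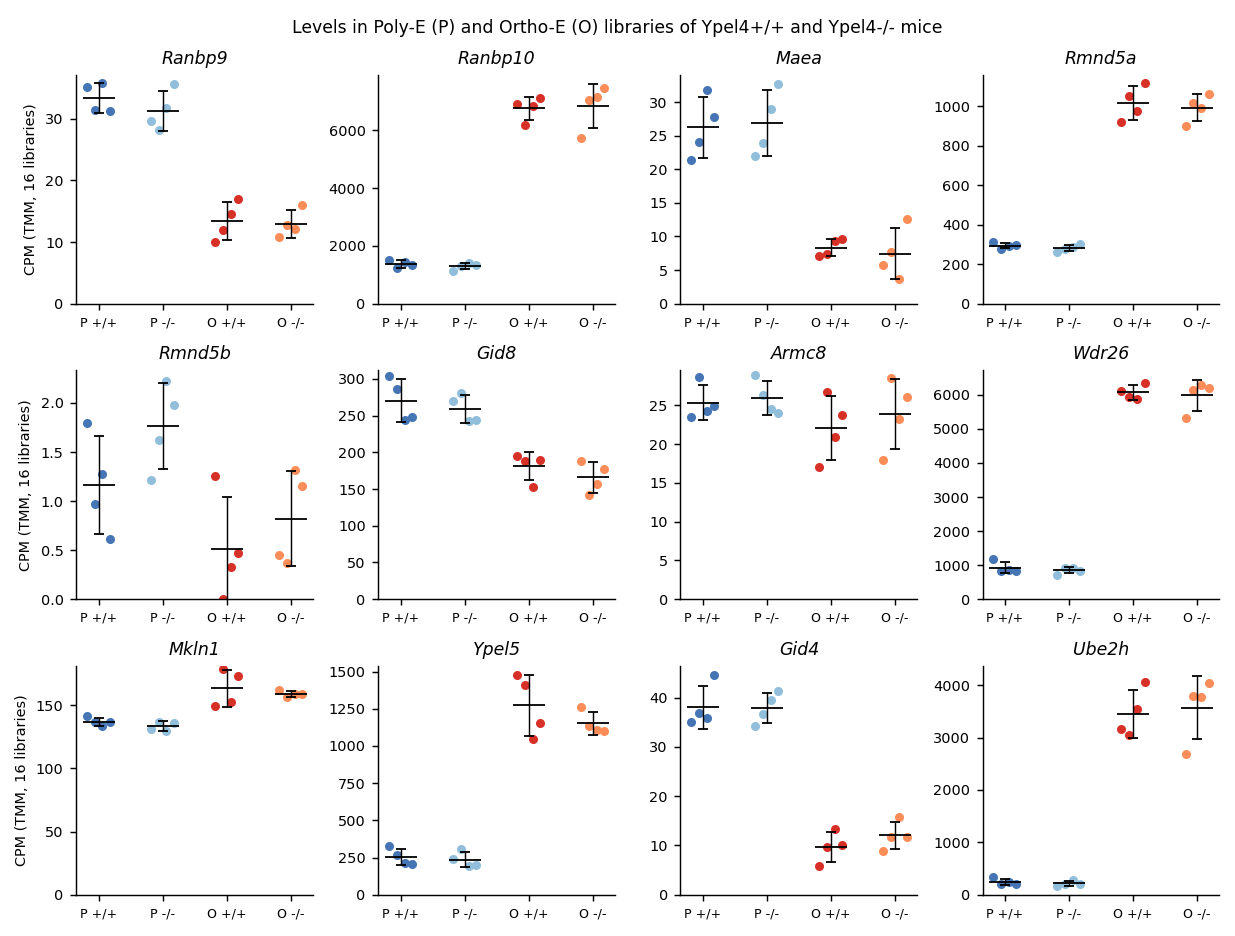
CPM of the 10 members and of *Gid4* and *Ube2h* (y axis from 0, 1 panel a gene), by population and genotype, with 1 point per library, a line at the mean of 4 and bars of 1 SD. The Ortho-E points of *Ranbp10*, *Wdr26*, *Ypel5* and *Rmnd5a* lie above the Poly-E points, those of *Maea*, *Ranbp9* and *Gid8* lie below, and the points of both genotypes overlap in each population.

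The RING subunits also differed in direction. *Maea* (ENSMUSG00000079562, chr5:33335509-33373296, + strand) was at 21.4, 24.0, 31.8 and 27.7 CPM in *Ypel4*+/+ Poly-E and 7.09, 7.40, 9.27 and 9.56 CPM in *Ypel4*+/+ Ortho-E cells. The *Ypel4*-/- libraries held 22.0, 23.9, 29.0 and 32.6 CPM in Poly-E and 5.83, 7.67, 3.61 and 12.53 CPM in Ortho-E cells, where replicate 3 was the lowest and replicate 4 the highest of all 8 Ortho-E libraries. The populations did not overlap, and *Maea* was 3.00-fold lower in *Ypel4*+/+ (log2 fold change −1.58, standard error 0.19, adjusted p = 6.21e-08 in edgeR) and 3.07-fold lower in *Ypel4*-/- Ortho-E cells (log2 fold change −1.62, standard error 0.24, adjusted p = 3.12e-06 in edgeR). *Rmnd5a* (ENSMUSG00000002222, chr6:71388634-71440637, - strand), the RING partner of MAEA, went the other way. Its levels were 314, 277, 293 and 295 CPM in *Ypel4*+/+ Poly-E and 922, 1055, 976 and 1118 CPM in *Ypel4*+/+ Ortho-E cells. They were, in *Ypel4*-/- mice, 263, 277, 288 and 300.3 CPM and 900.3, 1018, 993 and 1064 CPM. The spread within each group was small against the gap between populations, and *Rmnd5a* was 3.57-fold (log2 fold change 1.84, standard error 0.12, adjusted p = 3.32e-13 in edgeR) and 4.00-fold higher (log2 fold change 2.00, standard error 0.12, adjusted p = 2.40e-16 in edgeR) in *Ypel4*+/+ and *Ypel4*-/- Ortho-E cells. *Rmnd5b* (ENSMUSG00000001054, chr11:51623671-51635896, - strand), the paralog of *Rmnd5a*, was close to the limit of detection, with 129 counts over all 16 libraries. It was at 1.80, 0.968, 1.27 and 0.612 CPM in *Ypel4*+/+ Poly-E and 1.25, 0, 0.331 and 0.466 CPM in *Ypel4*+/+ Ortho-E cells, where the library at 0 allows a level of up to 1.71 CPM (3 counts, for counting error only). Its *Ypel4*-/- libraries stood at 1.22, 1.62, 2.22 and 1.98 CPM in Poly-E and 0.449, 0.365, 1.31 and 1.16 CPM in Ortho-E cells. The groups overlapped, and no difference was detectable at this depth (adjusted p = 0.206 and 0.132 in edgeR). The log2 fold change was −1.02 (95% interval −2.43 to 0.38) in *Ypel4*+/+ and −0.85 (95% interval −1.84 to 0.14) in *Ypel4*-/- mice, and with each library left out it ranged from −1.67 to −0.71 and from −1.09 to −0.64.

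Of the subunits that hold the core together, *Gid8* (ENSMUSG00000027573, chr2:180710117-180718733, + strand) was lower in Ortho-E cells by a small amount. It was at 304, 286, 244 and 248 CPM in *Ypel4*+/+ Poly-E and 195, 188, 153 and 189 CPM in *Ypel4*+/+ Ortho-E cells, and at 270.5, 280.1, 243 and 244 CPM and 188, 141, 157 and 177 CPM in *Ypel4*-/- mice. The populations did not overlap, with a 1.44-fold lower level in *Ypel4*+/+ (log2 fold change −0.53, standard error 0.12, adjusted p = 0.000608 in edgeR) and a 1.37-fold lower level in *Ypel4*-/- Ortho-E cells (log2 fold change −0.46, standard error 0.12, adjusted p = 0.00135 in edgeR). *Armc8* (ENSMUSG00000032468, chr9:99478372-99568899, - strand), an armadillo repeat protein of the core, held 23.5, 28.7, 24.3 and 24.9 CPM in *Ypel4*+/+ Poly-E and 17.1, 26.8, 20.9 and 23.8 CPM in *Ypel4*+/+ Ortho-E cells. The *Ypel4*-/- values were 29.0, 26.3, 24.6 and 24.0 CPM and 17.9, 28.5, 23.3 and 26.0 CPM. Its populations overlapped in both genotypes, with a log2 fold change of −0.15 (95% interval −0.49 to 0.19) in *Ypel4*+/+ and 0.08 (95% interval −0.24 to 0.40) in *Ypel4*-/- mice (adjusted p = 0.450 and 0.696 in edgeR).

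The genes of the proteins that join core units into larger assemblies differed in the size of their change. *Wdr26* (ENSMUSG00000038733, chr1:181173228-181211552, - strand) was at 1194, 836, 863 and 831 CPM in *Ypel4*+/+ Poly-E and 6104, 5939.7, 5881 and 6353 CPM in *Ypel4*+/+ Ortho-E cells. *Ypel4*-null mice had 725, 912, 913 and 833 CPM and 5306, 6141, 6293 and 6194 CPM. Replicate 1 stood above the other 3 in *Ypel4*+/+ Poly-E and below the other 3 in *Ypel4*-/- Ortho-E cells, and the populations were far apart in both genotypes. *Wdr26* had the highest fold change of the 10 members, 6.74-fold in *Ypel4*+/+ (log2 fold change 2.75, standard error 0.14, adjusted p = 3.39e-15 in edgeR) and 8.06-fold in *Ypel4*-/- mice (log2 fold change 3.01, standard error 0.12, adjusted p = 1.53e-20 in edgeR). In the respective genotypes 95.5% and 95.8% of all genes tested had a lower log2 fold change. *Mkln1* (ENSMUSG00000025609, chr6:31398735-31516811, + strand), the alternative to *Wdr26* in this place, was at 141, 136, 133 and 136 CPM in *Ypel4*+/+ Poly-E and 149, 179, 153 and 173 CPM in *Ypel4*+/+ Ortho-E cells, and at 131, 137, 129 and 136 CPM and 162, 156, 159 and 159 CPM in *Ypel4*-/- mice. Its populations lay close to each other without overlap, with a 1.23-fold difference in *Ypel4*+/+ (log2 fold change 0.30, standard error 0.12, adjusted p = 0.0269 in edgeR) and a 1.36-fold difference in *Ypel4*-/- mice (log2 fold change 0.44, standard error 0.12, adjusted p = 0.00162 in edgeR). The call in *Ypel4*+/+ mice was lost without the filter on low counts (log2 fold change 0.26, adjusted p = 0.129 in edgeR) and without Ortho-E replicate 2 (0.27, adjusted p = 0.0653), and the direction of *Mkln1* turned when libraries were scaled by their totals.

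*Ypel5* (ENSMUSG00000039770, chr17:72836704-72851195, + strand), the member of the Yippee family found in the complex, was among the genes that were higher in Ortho-E cells. It was at 327, 266, 216 and 208 CPM in *Ypel4*+/+ Poly-E and 1474, 1411, 1049 and 1156 CPM in *Ypel4*+/+ Ortho-E cells. In *Ypel4*-/- mice it was at 242, 304, 195 and 199 CPM in Poly-E and 1265, 1135, 1106 and 1103 CPM in Ortho-E cells. The lowest Ortho-E library stood over 3 times above the highest Poly-E library. The rise was 5.18-fold in *Ypel4*+/+ (log2 fold change 2.37, standard error 0.15, adjusted p = 2.46e-12 in edgeR) and 5.64-fold in *Ypel4*-/- mice (log2 fold change 2.49, standard error 0.13, adjusted p = 3.01e-17 in edgeR), higher than that of 92.6% and 91.8% of all genes.

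The libraries fell apart in the level of *Ypel5* relative to the scaffold gene *Ranbp10*. The ratio of the 2 genes per length, which needs no scaling between libraries, was 0.394 to 0.428 in 7 libraries and 0.256 to 0.300 in the other 9, with none between. The 7 were replicates 1 and 2 of *Ypel4*+/+ and replicate 1 of *Ypel4*-/- in both populations, and replicate 2 of *Ypel4*-/- in Poly-E cells. Both sets held libraries of each population and each genotype. Over 5279 genes, deviations from the group means in *Ypel4*+/+ and *Ypel4*-/- Poly-E libraries correlated at 0.233 to 0.487 among replicates 1 and 2, at 0.227 to 0.632 among replicates 3 and 4, and at −0.568 to −0.134 between these sets. In Ortho-E libraries these values were −0.093 to 0.255, 0.045 to 0.304 and −0.328 to 0.061. Deviations sum to 0 within a group, so positive values within sets push those between sets below 0, and the latter are no separate evidence. What sets the libraries apart was not tested.

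The 2 further genes of the complex went in opposite directions as well. *Ube2h* (ENSMUSG00000039159, chr6:30211289-30304539, - strand), the E2 enzyme of the ligase, was at 337, 212, 243 and 202 CPM in *Ypel4*+/+ Poly-E and 3155, 3041, 3551 and 4050.1 CPM in *Ypel4*+/+ Ortho-E cells. The *Ypel4*-/- libraries were at 160.1, 209.6, 290.1 and 209 CPM and 2685, 3792, 3769 and 4033 CPM. No Poly-E library came near an Ortho-E library, and *Ube2h* exceeded each of the 10 members in fold, with a 14.4-fold rise in *Ypel4*+/+ (log2 fold change 3.84, standard error 0.16, adjusted p = 2.10e-15 in edgeR) and an 18.7-fold rise in *Ypel4*-/- mice (log2 fold change 4.22, standard error 0.17, adjusted p = 2.73e-16 in edgeR). *Gid4* (ENSMUSG00000018415, chr11:60417145-60450927, + strand), the substrate receptor of the complex, was at 35.0, 36.8, 35.9 and 44.5 CPM in *Ypel4*+/+ Poly-E and 5.84, 9.68, 13.2 and 10.02 CPM in *Ypel4*+/+ Ortho-E cells, and at 34.3, 36.7, 39.5 and 41.3 CPM and 8.97, 11.7, 15.8 and 11.8 CPM in *Ypel4*-/- mice. It was lower in each Ortho-E library, by 3.74-fold in *Ypel4*+/+ (log2 fold change −1.90, standard error 0.19, adjusted p = 2.32e-09 in edgeR) and by 2.78-fold in *Ypel4*-/- mice (log2 fold change −1.47, standard error 0.17, adjusted p = 4.22e-09 in edgeR).

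The direction of some members depended on how libraries were scaled. TMM factors were 1.45 to 1.64 in Poly-E and 0.614 to 0.728 in Ortho-E libraries, and scaling by library totals alone moved the median log2 fold change of all genes by −1.26 in *Ypel4*+/+ and by −1.39 in *Ypel4*-/- mice. Calls then split into 1217 higher and 7087 lower in *Ypel4*+/+ (14.7% of calls higher, against 45.1% of 3101 and 3773 calls with TMM) and into 1337 and 7289 in *Ypel4*-/- mice (15.5%, against 48.4% of 3538 and 3767). On that scale *Wdr26* (1.48 and 1.59 in *Ypel4*+/+ and *Ypel4*-/- mice), *Ypel5* (1.09 and 1.07), *Ranbp10* (1.06 and 1.16), *Rmnd5a* (0.56 and 0.58) and *Ube2h* (2.57 and 2.80) kept their direction. *Mkln1* turned to −0.98 in both genotypes, and *Armc8* (−1.43 and −1.34) and *Rmnd5b* (−2.26 and −2.22) were called lower, so that 4 members were higher and 6 lower. Relative to the median of all genes, *Mkln1* stood above it on both scales.

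Levels were compared between members per length of exon, as TPM (counts per kilobase of exon, scaled to the same sum in each library), which like library totals carries no correction for the composition of the libraries. In *Ypel4*+/+ Poly-E cells *Ranbp10* led with 1041 ± 88.3 TPM (SD, n = 4), 39.9% of the summed TPM of the 10 members. *Wdr26* (475 ± 92.2), *Gid8* (440.2 ± 56.3) and *Ypel5* (355 ± 80.8) followed, with ranges that overlapped between neighbours in this order, and *Rmnd5a* (174 ± 10.96) stood below them. *Ranbp9* (43.7 ± 2.00) and *Maea* (39.9 ± 5.91) overlapped, followed by *Mkln1* (19.0 ± 1.06), *Armc8* (15.6 ± 1.76) and *Rmnd5b* (2.14 ± 0.912). The scaffold and RING positions of the complex were thus each represented by one paralog at a high and one at a low level.

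In *Ypel4*+/+ Ortho-E cells the order was steeper. *Ranbp10* (1932 ± 104 TPM), *Wdr26* (1171 ± 35.0) and *Ypel5* (670.4 ± 96.3) took 46.7%, 28.3% and 16.2% of the members' TPM and did not overlap. *Rmnd5a* (227 ± 22.1) and *Gid8* (111 ± 8.41) came next, also apart from their neighbours. *Mkln1* (8.56 ± 0.913), *Ranbp9* (6.63 ± 1.56), *Armc8* (5.15 ± 1.08) and *Maea* (4.81 ± 0.814) overlapped with their neighbours in this order, and *Rmnd5b* was last (0.349 ± 0.350). In *Ypel4*-/- mice *Ranbp10* was at 1000.4 ± 68.7 TPM in Poly-E and 2051 ± 239.7 TPM in Ortho-E cells, *Wdr26* at 438 ± 26.4 and 1214 ± 124 TPM, and *Ypel5* at 333 ± 66.9 and 645 ± 114 TPM. With these lengths the first 5 members had the same order in *Ypel4*-/- as in *Ypel4*+/+ mice in both populations. With the length of the longest transcript *Gid8* came before *Wdr26* in *Ypel4*-/- Poly-E cells, where the ranges of the 2 genes overlapped. The places of *Mkln1*, *Ranbp9* and *Armc8* also rest on the length taken. For *Mkln1* the exons sum to 28943 bases in the deposited counts and its longest transcript has 11395 bases, which would put it at rank 6 instead of 8 in *Ypel4*+/+ Poly-E cells, with *Ranbp9* at 8 instead of 6, and in *Ypel4*+/+ Ortho-E cells *Armc8* would be at 7 instead of 8.

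**Figure D3:**
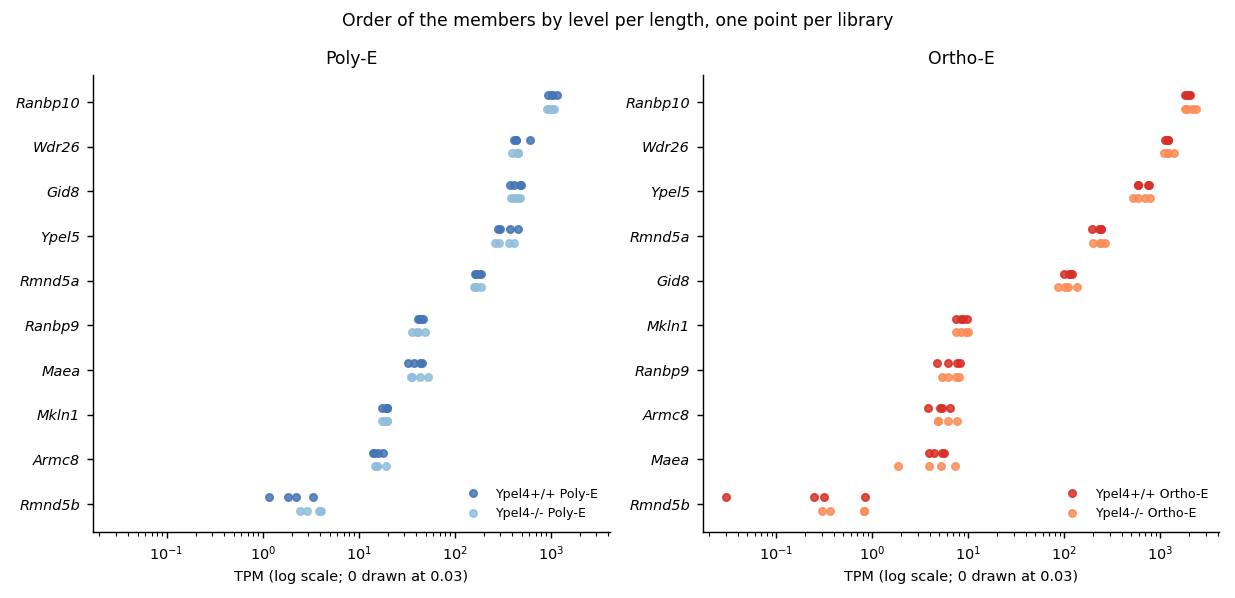
TPM of the 10 members (log axis) in Poly-E (left) and Ortho-E cells (right), with 1 point per library, both genotypes side by side, and members ordered by their mean level over both genotypes in that population. A library at 0 is drawn at 0.03. *Ranbp10*, *Wdr26* and *Ypel5* separate from the rest in Ortho-E cells, while *Maea*, *Ranbp9*, *Armc8* and *Mkln1* gather near the bottom.

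Ratios between members within a library are free of scaling between libraries. Per length, *Ranbp10* exceeded *Ranbp9* by 22.4 to 25.0 times in *Ypel4*+/+ Poly-E and by 242 to 399 times in *Ypel4*+/+ Ortho-E cells, and by 22.0 to 27.0 and 269 to 339 times in *Ypel4*-/- mice. The scaffold ratio was therefore 12.3-fold and 12.6-fold higher in Ortho-E cells (mean log2 difference 3.62 and 3.66), with no overlap between the populations. *Rmnd5a* exceeded *Rmnd5b* by 55.6 to 154 times in *Ypel4*+/+ Poly-E and by 41.3 to 68.7 times in *Ypel4*-/- Poly-E cells. In Ortho-E cells the few counts of *Rmnd5b* leave this ratio imprecise (log2 difference of *Rmnd5b* to *Rmnd5a* of −2.74 in *Ypel4*+/+ and −2.79 in *Ypel4*-/- mice, with 0.5 added to each count). The ratio of *Ypel5* to *Ypel4* in *Ypel4*+/+ mice was 0.323 to 0.494 in Poly-E and 0.180 to 0.293 in Ortho-E cells, 1.70-fold lower, beside log2 fold changes of 3.14 for *Ypel4* and 2.37 for *Ypel5*. Each of these 5 differences gave p = 0.0286 in an exact permutation test over libraries (two-sided, 4 against 4), the smallest p that test can give, and 0.0286 after adjustment over the 5. Paired by replicate number, each gave p = 0.125 in an exact sign-flip test, again the smallest possible with 4 pairs. In *Ypel4*-/- mice, where the source of the remaining counts of *Ypel4* was not tested, the ratio of *Ypel5* to *Ypel4* was 7.47 to 22.2 in Poly-E and 4.49 to 6.62 in Ortho-E cells, which is given as a description only.

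Other ratios per length are given as descriptions. For the RING pair, *Rmnd5a* stood at 3.56 to 5.68 times *Maea* in *Ypel4*+/+ Poly-E and at 40.8 to 55.2 times in *Ypel4*+/+ Ortho-E cells, and at 3.57 to 4.64 and 32.9 to 107 times in *Ypel4*-/- mice. The E2 gene *Ube2h* stood at 4.01 to 8.67 times *Maea* in *Ypel4*+/+ Poly-E and at 211 to 245 times in *Ypel4*+/+ Ortho-E cells, and at 3.52 to 5.49 and 177 to 574 times in *Ypel4*-/- mice. In Ortho-E cells *Maea* had 13 to 41 counts per *Ypel4*+/+ library and 11 to 65 per *Ypel4*-/- library, which leaves ratios to it imprecise. The values of 107 and 574 are both from *Ypel4*-/- replicate 3, with 11 counts of *Maea*. *Wdr26* stood at 0.918 to 1.23 times *Gid8* in *Ypel4*+/+ Poly-E and at 9.82 to 12.04 times in *Ypel4*+/+ Ortho-E cells, and at 0.842 to 1.18 and 8.84 to 13.6 times in *Ypel4*-/- mice. The transcripts of the E2 enzyme, of one RING subunit and of the assembly subunit were thus in a different proportion to *Maea* and *Gid8* in Ortho-E cells. By contrast, *Ypel5* to *Ranbp10* covered nearly the same range in each group, 0.274 to 0.403 and 0.284 to 0.421 in *Ypel4*+/+ and 0.256 to 0.428 and 0.273 to 0.408 in *Ypel4*-/- Poly-E and Ortho-E cells.

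**Figure D4:**
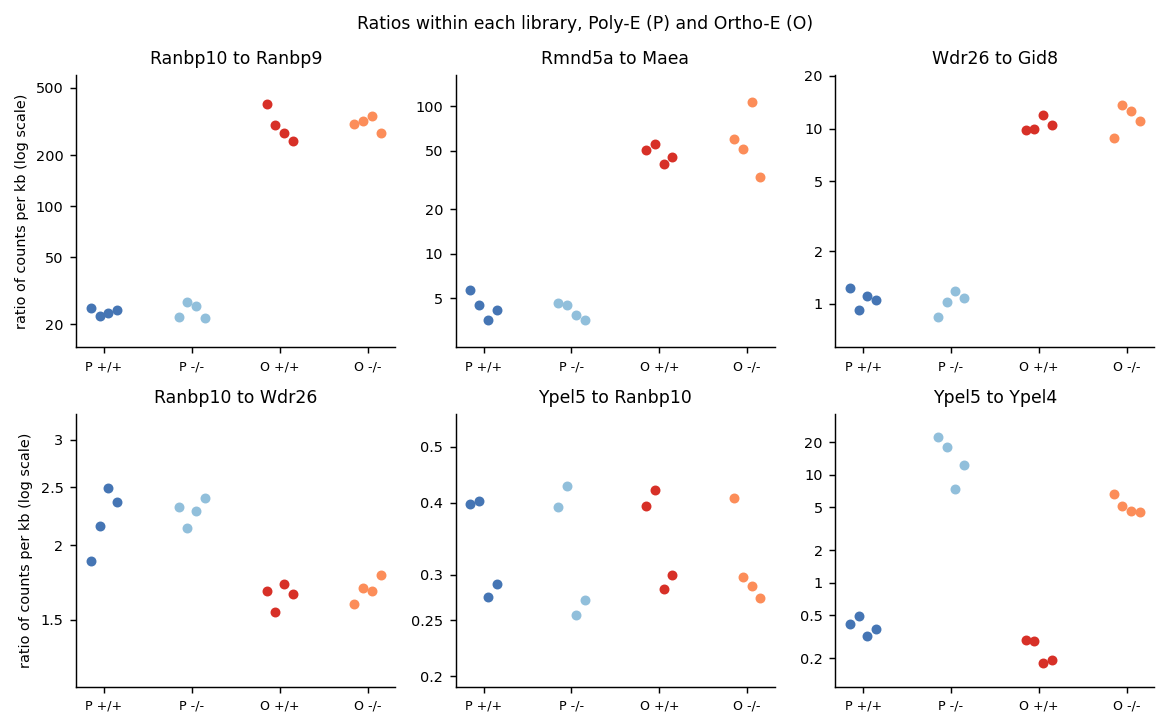
Ratio of counts per kilobase between pairs of genes in each library (log axes), with 1 point per library, for Poly-E (P) and Ortho-E (O) cells of each genotype. *Ranbp10* to *Ranbp9* rises from at most 27.0 to at least 242, while *Ypel5* to *Ranbp10* shows an upper and a lower set of libraries in each group.

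Loss of *Ypel4* was not accompanied by a called difference in any member. In Poly-E cells edgeR called 1 of 12395 genes (0.00807%), *Ypel4* itself, and 4 with the replicate number as a block, with 271 genes and none of the members at an unadjusted p under 0.05. In Ortho-E cells it called 3 of 10521 (0.0285%), and 13 with the block, with 387 genes and again no member at an unadjusted p under 0.05. DESeq2 also called no member in either population. Adjusted p-values of the members were 1.00 in Poly-E and 0.995 or more in Ortho-E cells. A missed threshold does not show that the genotypes were alike, and the intervals below give the sizes of difference left possible by a fit without a replicate term. The spread between the sets of replicates described above is part of these intervals, and intervals with the block are not given here.

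*Ypel5* had a log2 fold change in *Ypel4*-/- against *Ypel4*+/+ mice of −0.11 (95% interval −0.47 to 0.25) in Poly-E and of −0.12 (95% interval −0.36 to 0.12) in Ortho-E cells. Its levels, listed above, overlapped between genotypes in both populations. For the scaffold genes the values were −0.08 (95% interval −0.30 to 0.13) and 0.03 (95% interval −0.15 to 0.21) for *Ranbp10*, and −0.09 (95% interval −0.33 to 0.15) and −0.04 (95% interval −0.46 to 0.38) for *Ranbp9*. Among the RING genes *Rmnd5a* was at −0.06 (95% interval −0.26 to 0.14) in Poly-E and −0.01 (95% interval −0.20 to 0.17) in Ortho-E cells, and *Maea* at 0.03 (95% interval −0.27 to 0.34) and −0.11 (95% interval −0.70 to 0.48). The interval of *Maea* in Ortho-E cells was wide, and its 4 *Ypel4*-/- libraries ranged from 3.61 to 12.53 CPM. *Rmnd5b*, at 41 counts over the *Ypel4*+/+ and 70 over the *Ypel4*-/- Poly-E libraries and at 6 and 12 over the Ortho-E libraries, was at 0.68 (95% interval −0.07 to 1.44) and 0.71 (95% interval −0.93 to 2.36), so that a difference of 2-fold in either population could not be told from none. With each library left out these values ranged from 0.43 to 0.90 and from 0.47 to 1.37. *Wdr26* was at −0.14 (95% interval −0.40 to 0.12) and −0.0014 (95% interval −0.17 to 0.17), and *Mkln1*, its alternative in the complex, at −0.04 (95% interval −0.23 to 0.16) and −0.02 (95% interval −0.24 to 0.21). The genotypes overlapped in the levels of both genes in each population. *Gid8* was at −0.06 (95% interval −0.29 to 0.17) and −0.11 (95% interval −0.35 to 0.13) and *Armc8* at 0.04 (95% interval −0.22 to 0.30) and 0.15 (95% interval −0.21 to 0.52). The E2 gene *Ube2h* was at −0.19 (95% interval −0.60 to 0.21) and 0.07 (95% interval −0.14 to 0.27), and the receptor gene *Gid4* at −0.0046 (95% interval −0.25 to 0.24) and 0.32 (95% interval −0.18 to 0.82). Apart from *Rmnd5b*, the 95% intervals of the members lay within −0.47 and 0.34 in Poly-E and within −0.70 and 0.52 in Ortho-E cells. The summed lymphocyte markers, mostly *Ighm*, stood at 29.0 to 44.7 CPM in *Ypel4*+/+ and 52.2 to 66.4 CPM in *Ypel4*-/- Ortho-E cells, and their part in these values was not tested.

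**Figure D5:**
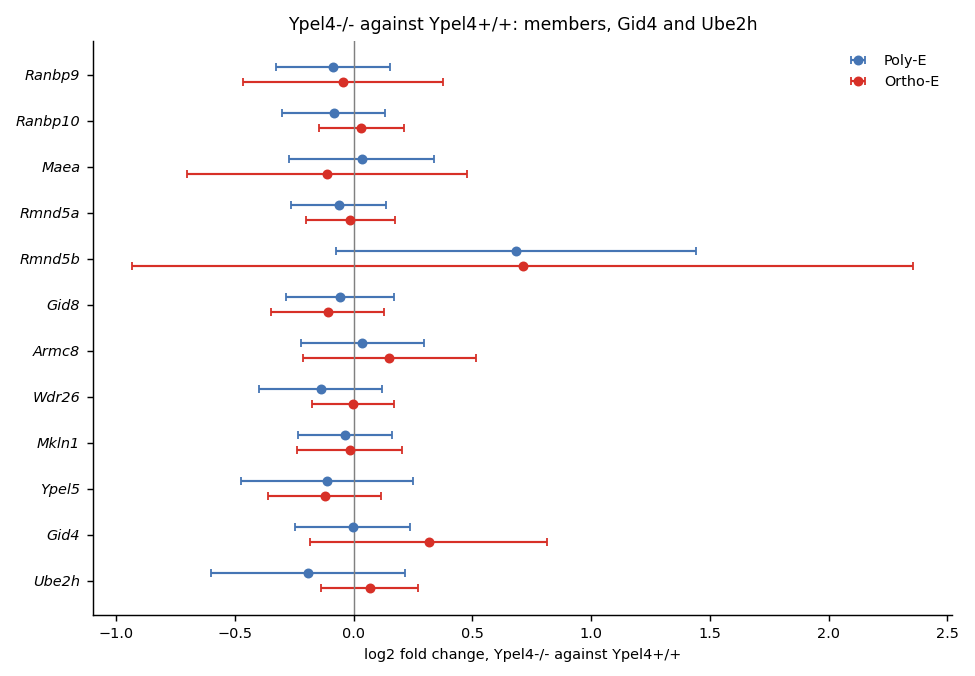
Log2 fold change of each member, with *Gid4* and *Ube2h*, in *Ypel4*-/- against *Ypel4*+/+ cells (x axis, log2 units) in Poly-E and in Ortho-E, as points with 95% intervals from edgeR. Each interval spans 0, and the interval of *Rmnd5b* in Ortho-E cells, from −0.93 to 2.36, is the widest.

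Whether the step from Poly-E to Ortho-E cells differed between genotypes was tested as an interaction over 16 libraries. edgeR called 0% of 13318 genes, and no member was among the 363 genes at an unadjusted p under 0.05, while DESeq2 called 1 gene, not a member. Interaction log2 values of the members ran from −0.14 for *Maea* to 0.12 for *Wdr26*. The 95% intervals were widest for *Rmnd5b* (−1.45 to 1.61) and *Maea* (−0.80 to 0.52). *Ypel5* was at −0.03 (95% interval −0.45 to 0.39), *Ranbp10* at 0.10 (95% interval −0.22 to 0.42) and *Wdr26* at 0.12 (95% interval −0.22 to 0.46). *Ube2h* was at 0.24 (95% interval −0.27 to 0.76) and *Gid4* at 0.31 (95% interval −0.22 to 0.84).

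Related genes were read from lists. These lists were set with earlier results of these data known, so their shares of calls and medians are given as descriptions. Of 16 other E2 and E3 enzymes known from red cell maturation, 13 were tested in *Ypel4*+/+ mice and all 13 were called higher in Ortho-E cells (median log2 fold change 2.23), and 13 of 14 tested were called higher in *Ypel4*-/- mice (median 2.32), beside 26.4% and 29.5% of all genes, with *Siah2* at −0.50 not called. *Ube2e1* and *Nedd4l* were not tested in either genotype, nor was *Siah2* in *Ypel4*+/+ mice. *Fbxo30* had the highest values (3.80 and 4.11 in *Ypel4*+/+ and *Ypel4*-/- mice) and *Siah1a* the lowest of those called (0.88 and 1.25). *Trim58* (3.72 and 3.96), a ligase of late erythroblasts that acts on dynein, and *Ube2o* (3.34 and 3.74), an enzyme that drives loss of ribosomes in reticulocytes, were within the range of *Wdr26* and *Ube2h*. The others were *Rnf11* (2.96 and 3.28), *Trim10* (2.83 and 3.17), *Ube2l6* (2.58 and 2.80), *Cul4a* (2.23 and 2.40), *March8* (1.96 and 2.23), *Cul4b* (1.34 and 1.47), *Fbxo7* (1.27 and 1.52), *Huwe1* (1.04 and 1.18) and *Rnf123* (0.91 and 1.07). Scaled by library totals, *Siah1a*, *Huwe1* and *Rnf123* turned to values below 0 in both genotypes, *Fbxo7* turned to −0.01 in *Ypel4*+/+ mice, and *Cul4b* (0.06 and 0.05) and *Fbxo7* in *Ypel4*-/- mice (0.10) lost their calls. The members' own median of 0.08 and 0.26 stood below that of this list in both genotypes. No gene of the list was called between genotypes.

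Of 8 proteins that the complex acts on, or whose loss in nuclear condensation is tied to it, 1 gene was called higher in Ortho-E cells, 2 were called lower and 5 were not called in *Ypel4*+/+ mice (median −0.67), and 1, 2 and 4 of 7 tested in *Ypel4*-/- mice (median −0.57). Over all genes 26.4% were called higher and 32.1% lower in *Ypel4*+/+ mice (median −0.19), and 29.5% and 31.5% in *Ypel4*-/- mice (median −0.09). The higher one was *Hbp1* (3.21 and 3.48), a transcription factor of the cell cycle. *Lmnb1* (−2.06 and −2.05), the gene of lamin B1 in the nuclear lamina, and *Zmynd19* (−2.04 and −1.63) were lower. The genes not called were *Hmgcs1*, *Pkm*, *Ldha*, *Lmnb2* and, in *Ypel4*+/+ mice, *Nmnat1*. Each summed to 30 counts or fewer over the 4 libraries of an Ortho-E group, so a change in them could be missed. The medians of the list are set by genes among these. These are transcripts, and the complex acts on proteins, which were not measured. In the Yippee family *Ypel3* (3.21 and 3.32) was called higher in Ortho-E cells of both genotypes, beside *Ypel4* (3.14 and 3.86) and *Ypel5*. *Ypel1* and *Ypel2* rested on few counts, with overlapping groups. They were called in *Ypel4*-/- mice (1.49 and 1.80, adjusted p = 0.0451 and 0.0456 in edgeR). Both calls were lost with DESeq2 on the 8 libraries of that genotype, with library totals in place of TMM, with edgeR on all 16 libraries (adjusted p = 0.0522 and 0.0578) and without the filter on low counts (adjusted p = 0.0583 and 0.0544 in edgeR). DESeq2 on all 16 libraries kept that of *Ypel1* and lost that of *Ypel2*. The call of *Ypel2* was lost with the replicate block (1.69, adjusted p = 0.0679 in edgeR) and without Poly-E replicate 1 or 4 or Ortho-E replicate 2, 3 or 4 (1.33 to 1.91), and that of *Ypel1* without Poly-E replicate 1 or 3 or Ortho-E replicate 1, 2 or 3 (1.04 to 1.58). Apart from *Ypel4*, no gene of these lists was called between genotypes, with *Ypel3* at −0.06 (95% interval −0.43 to 0.31) in Poly-E and −0.07 (95% interval −0.26 to 0.13) in Ortho-E cells.

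The genes whose log2 CPM followed a member most closely over the 16 libraries are given as a description. The libraries fall into 2 populations, so that genes with a large difference between populations correlate with one another whatever else they do. *Ypel5* was followed by *Dnajb4* (Pearson r = 0.999), *Gabarapl2*, *Slc25a39* and *Rhag* (each 0.998) among 5278 genes that averaged 50 counts or more. *Wdr26* was followed by *Specc1* and *Fam46c* (both 1.00), *Ranbp10* by *Epb4.1* and *Fbxo9* (both 0.999), and *Rmnd5a* by *Gtf2e2* and *Cpeb3* (both 0.998). The genes that were lower in Ortho-E cells were followed by *Lonp1* (0.986) and *Ccsap* (0.977) for *Maea*, *Terf2* (0.992) and *Ptp4a2* (0.988) for *Ranbp9*, and *Hmgn2* (0.987) and *Tmem60* (0.985) for *Gid8*. *Mkln1* was followed by *Herc4* (0.955) and *Hook3* (0.944), *Armc8* by *Dcun1d5* (0.783) and *Txndc11* (0.765), and *Rmnd5b* by *Nol4l* (0.876) and *Abhd13* (0.830), the last from 129 counts in all.

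Counting ignored the strand, so reads from overlapping genes on the opposite strand cannot be told apart. *Ranbp9* shares 186 exon bases, 6.07% of its length, with *Nol7*, which had 4359 counts over all libraries against 2836 for *Ranbp9*. *Rmnd5b* shares 44 bases (2.04%) with *Nhp2*, and *Mkln1* shares 39 with the antisense gene *Mkln1os*. Reads that touched both genes were left out by the counting, and the other 7 members share no exon base with another gene.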

How the data were processed

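RNA was measured in 16 libraries, 4 a group, and sample titles gave the groups and replicate numbers. Reads were mapped by the authors to GRCm38 with nf-core/rnaseq, and the deposited values are counts of read pairs on the exons of a gene from featureCounts 1.6.4, and per the file headers strand was not used and reads mapping to several places or genes were not counted. The release of the annotation is not given in the sources used here. Gene positions are those of the deposited counts, and promoters are from RefSeq (GRCm38.p6).

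The deposited counts (2670173 to 12451234 per library) were tested with edgeR 4.0.16 (quasi-likelihood, robust, TMM, in R 4.3.3) for genes whose counts in a fit summed to 10 or more, using 8 libraries for each comparison of 2 groups and 16 for the interaction. p-values were adjusted over all genes tested (Benjamini-Hochberg, threshold 0.05). A standard error is the size of a log2 fold change divided by the square root of F, and 95% intervals use the total degrees of freedom of the fit. Ratios per length and their ranges used the counts as deposited. Log2 differences of ratios between populations, and the folds from them, used 0.5 added to each count. Their exact permutation tests were run in python 3.11.15 with scipy 1.17.1. The edgeR fits were also run on simulated counts with 200 changed genes, balanced between higher and lower. Those counts held no shift in library composition, so they do not bear on the choice of scaling. The members, the gene lists and the rule for named genes (all members, called and extreme genes of each list, the genes most like each member, and genes sharing exons with one) were chosen with earlier results of these data known. Alternatives were DESeq2 1.42.0, DESeq2 size factors, library totals, globin genes left out, other filters, all 16 libraries in the fit, a replicate block, a term for replicates 1 and 2, and each library left out. Certain genes, 1 of them an erythroblast marker, are not reported here.

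Replicate numbers were taken to pair libraries where each same-numbered pair deviated together from its group means (correlation over 0.1 across 5279 genes). Poly-E and Ortho-E libraries carry a shared number in their deposited names that may mark the mouse, and correlated at 0.416 to 0.605 in *Ypel4*+/+ mice, taken as paired, and at 0.083 (replicate 2) to 0.505 in *Ypel4*-/- mice. Between genotypes the correlations were 0.233 to 0.632 in Poly-E, taken as paired by this rule, and −0.093 to 0.304 in Ortho-E cells, not taken as paired. Poly-E libraries of different numbers correlated at −0.568 to 0.591 between genotypes, so the number alone does not mark these pairs. No 2 libraries of the same group were copies of each other.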

Additional observations from a re-analysis of the deposited data

Results flagged for a closer look

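Each member, *Ube2h* and *Gid4* were checked for outlying libraries in each group of 4 libraries, which made 48 sets of values. The gap of 1 library to the rest was taken as a share of the set's range. It passed Dixon's 95% critical value in 2 of the 48 sets, both of *Wdr26*. Chance alone gives about 1 such set in 20, so 2 of 48 is no more than chance would give. In *Ypel4*+/+ Poly-E cells replicate 1 had 1194 CPM of *Wdr26* and the others 831 to 863 CPM (gap 0.913 of the range). In *Ypel4*-/- Ortho-E cells replicate 1 had 5306 CPM and the others 6141 to 6293 CPM (gap 0.845). Without the first library the log2 fold change of *Wdr26* in Ortho-E against Poly-E cells of *Ypel4*+/+ mice was 3.01, and without the second that in *Ypel4*-/- mice was 3.02, both still called by edgeR. Between genotypes *Wdr26* moved from −0.14 to 0.0074 in Poly-E cells without the first library and from −0.0014 to 0.028 in Ortho-E cells without the second, and passed the threshold in neither.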

How the results depend on the processing

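Between populations, the calls of *Wdr26*, *Ypel5*, *Ranbp10*, *Rmnd5a*, *Maea*, *Ranbp9* and *Gid8* kept their direction and their side of the threshold under each alternative run, and *Mkln1* in *Ypel4*+/+ mice lost its call in the cases named above. Library totals in place of TMM gave 6 members called lower in each genotype, 1217 genes called higher and 7087 lower in *Ypel4*+/+ mice, and 1337 and 7289 in *Ypel4*-/- mice. They turned *Mkln1* to −0.98 in *Ypel4*+/+ and −0.98 in *Ypel4*-/- mice, *Siah1a* to −0.41 and −0.16, *Rnf123* to −0.38 and −0.34, *Huwe1* to −0.25 and −0.24, *Fbxo7* in *Ypel4*+/+ mice to −0.013, *Ypel1* in *Ypel4*+/+ mice to −1.19 and *Armc8* in *Ypel4*-/- mice to −1.34, with the median of all genes shifted by −1.26 and −1.39. *Armc8*, which was not called, also changed sign with filterByExpr (0.029, *Ypel4*+/+) and with edgeR on 16 libraries (−0.084, *Ypel4*-/-), and *Ypel1* in *Ypel4*+/+ mice without a filter (−0.00099). With each library left out, *Armc8* ranged from −0.22 to 0.0035 in *Ypel4*+/+ and −0.035 to 0.14 in *Ypel4*-/- mice, *Ypel1* from −0.19 to 0.36 in *Ypel4*+/+ and *Siah2* from −3.84 to 0.15 in *Ypel4*-/- mice.

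Between genotypes, none of 180 values of the members in Poly-E, 179 in Ortho-E and 250 of the interaction passed the threshold (lowest adjusted p 0.824, 0.746 and 0.925 in edgeR or DESeq2), and signs turned in 7, 18 and 44 of them, where the values lay near 0. All genes called in Poly-E cells numbered 1, but 2 with DESeq2, 3 with edgeR on 16 libraries, 5 with DESeq2 on 16 libraries, 4 without a filter, 3 with a term for replicates 1 and 2 against 3 and 4, and 1 to 2 with each library left out. In Ortho-E cells 3 were called, but 5 with DESeq2 on 16 libraries or without a filter. The interaction had 0 calls, but 1 with DESeq2 with or without its filters, and 0 to 1 with each library left out. Signs turned with library totals for *Mkln1* (0.018) and *Gid4* (0.044) in Poly-E and for *Rmnd5a* (0.018), *Wdr26* (0.032) and *Mkln1* (0.017) in Ortho-E cells, and without a filter for *Wdr26* in Ortho-E cells (0.0036). In the interaction DESeq2 gave 0.020 for *Mkln1* and 0.0026 for *Ypel5*, with and without its filters, and its size factors in edgeR 0.026 and 0.0025. With each library left out, members whose sign turned ranged in Poly-E cells as *Maea* −0.076 to 0.14, *Armc8* −0.035 to 0.10, *Gid8* −0.12 to 0.0058, *Wdr26* −0.19 to 0.0074, *Ypel5* −0.26 to 0.036 and *Gid4* −0.045 to 0.087, in Ortho-E cells as *Maea* −0.52 to 0.11, *Rmnd5a* −0.055 to 0.011, *Ranbp9* −0.14 to 0.058, *Ranbp10* −0.013 to 0.086, *Wdr26* −0.044 to 0.028 and *Mkln1* −0.052 to 0.035, and in the interaction as *Maea* −0.62 to 0.089, *Rmnd5a* −0.010 to 0.17, *Rmnd5b* −0.18 to 0.73, *Ranbp9* −0.11 to 0.21, *Gid8* −0.14 to 0.036, *Mkln1* −0.037 to 0.11 and *Ypel5* −0.11 to 0.12.

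The replicate block changed no call of a member and ended that of *Ypel2* in *Ypel4*-/- mice. It gave 4 calls over all genes in Poly-E, 13 in Ortho-E and 1 in the interaction, where *Mkln1* was at 0.0012. Paired by number, the within-library ratios kept their mean log2 differences of 3.62 and 3.66 (*Ranbp10* to *Ranbp9*), −2.74 and −2.79 (*Rmnd5b* to *Rmnd5a*) and −0.77 (*Ypel5* to *Ypel4*) with the exact p of 0.125 that is the smallest for 4 pairs. With a library left out, the exact permutation p was 0.0571, the smallest for 3 against 4, and the differences ranged from 3.49 to 3.72 and 3.61 to 3.72, from −3.23 to −2.38 and −3.03 to −2.54, and from −0.88 to −0.64. Depth limits *Rmnd5b*, *Ypel1*, *Ypel2* and *Siah2*, with few counts in Ortho-E libraries. The same holds for *Hmgcs1*, *Pkm*, *Ldha*, *Lmnb2* and *Nmnat1*.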
